A study of Gallus gallus with 16 samples.

Results

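The genes described here are 8 genes of RNA splicing and RNA binding in abdominal fat, out of 17854 loci in the deposited count table. They were chosen by symbol from the study's list of genes called between the lines in these same birds. Symbols beginning with SRSF, SF3, HNRNP, SNRP, DDX, DHX, PRPF, LSM, RBM, CPSF or NOP were taken, with QKI added, when the count reached 10 in the higher line. The names gave 11 genes in the part of that list used here. The 8 that met the rule were QKI, RBM47, SRSF7, SNRPE, SNRPF, DHX37, RBM34 and DHX58. DDX1 and SF3B3 led to identifiers with no row among the counts. RBM14 was listed at 0 in both lines and was the single gene outside the minimum. The study had called RBM14, so this 0 is not read as an absent transcript. The gene just inside it was DHX58, with 20.6 in HG against 26.6 in LG. Because the study's own call between HG and LG chose these genes, their HG/LG ratios are a description. Counts of members that pass a threshold are printed beside the share of all genes, nothing is read from them, and the directions are not independent evidence.

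The birds were HG (high growth) and LG (low growth) cockerels of a Bresse-Pile meat-type population, selected in opposite directions on body weight at a juvenile and an adult age. Abdominal fat was taken from 4 fed cockerels of each line at 7 wk, and each bird's RNA was sequenced in 2 lanes. The line field of the sample labels reads HG for all 16 samples, so the line was taken from the titles. Both lines were housed together on the same feed after the first weeks and neither is an unselected control.

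Pre-mRNA splicing is carried out by the spliceosome, in which small nuclear RNAs are wrapped by a ring of Sm proteins. SR proteins bind exons and recruit this machinery, while regulators such as QKI bind introns or exons and shift the choice of exons from tissue to tissue. Other RNA-binding proteins act elsewhere, among them RNA helicases that unwind RNA during ribosome assembly or that recognise viral RNA. By this background the word splicing fits QKI, RBM47, SRSF7, SNRPE and SNRPF. DHX37 belongs to ribosome assembly and DHX58 to antiviral sensing. RBM34 is known mainly as a protein with RNA recognition motifs.

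The table holds 1 estimated count per gene and line over the 4 birds, with a model variance and no value for a single bird. Column totals were 4421254 in HG against 3365950 in LG. The paper reports far more mapped reads for each single bird, and slightly more paired-end reads in LG than in HG. The totals are therefore not read as sequencing depth, and the reason for the gap was not tested. The test took genes with 10 or more counts in the higher line, a count above 0 in both and the status OK, and these were 10484. All 8 members were among them. Log2 HG/LG ratios have a pseudocount of 1, and their 95% intervals come from the deposited variances. Their median ratio was 0.26, and 75.3% of the genes tested had the higher count in HG, so the ratios of the members are also given relative to the median gene, which takes 0.26 from each. Neither line's RNA could be split by cell type. In bulk fat, fewer cells of a type and less RNA per cell cannot be told apart. Of 12 adipocyte markers 4 were tested. PPARG, the nuclear receptor of adipocyte differentiation, had counts of 1774 in HG against 910 in LG, and the lipogenic enzymes ACACA and SCD had higher counts in HG as well. ACACA had 1576 in HG against 729 in LG, and SCD had 26156 in HG against 162 in LG. The paper prints smaller RNA-Seq folds for PPARG, ACACA and SCD than these counts give, and the reason was not tested. PNPLA2, a lipase of fat droplets, had the lower count in HG, with 5366 in HG against 12188 in LG. With the deposited counts PPARG, ACACA and SCD passed as higher in HG, where 2.93% of all genes tested passed in either direction. After centring SCD passed as higher and PNPLA2 as lower, where 2.18% passed. ADIPOQ, FABP4, PLIN1, LPL and CIDEC were not matched to a row here. A marker of any cell type had a name here only if it was in the part of the study's called list used here. The ratios of markers are therefore not independent evidence of direction.

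Among the 8 genes, QKI stood apart, with more counts in HG, while the other 7 lay near or below equality between the lines. The HG count was the higher one for 2 genes, QKI and RBM34, and the lower one for 6. Relative to the median gene, QKI was above it and the other 7 were below it. The median log2 ratio of the 8 was -0.15, against 0.26 over all genes tested. None of the 8 passed at an adjusted p of 0.05 with a fold of at least 1.2, where 2.93% of all genes tested passed. After centring on the median gene none of the 8 passed either, where 2.18% did. At an unadjusted p under 0.05 there was 1 member, QKI, against 11.1% of the genes tested, and after centring there was none, against 7.51%. Nothing about the members is read from these counts, since the rule used this contrast.

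**Figure D1:**
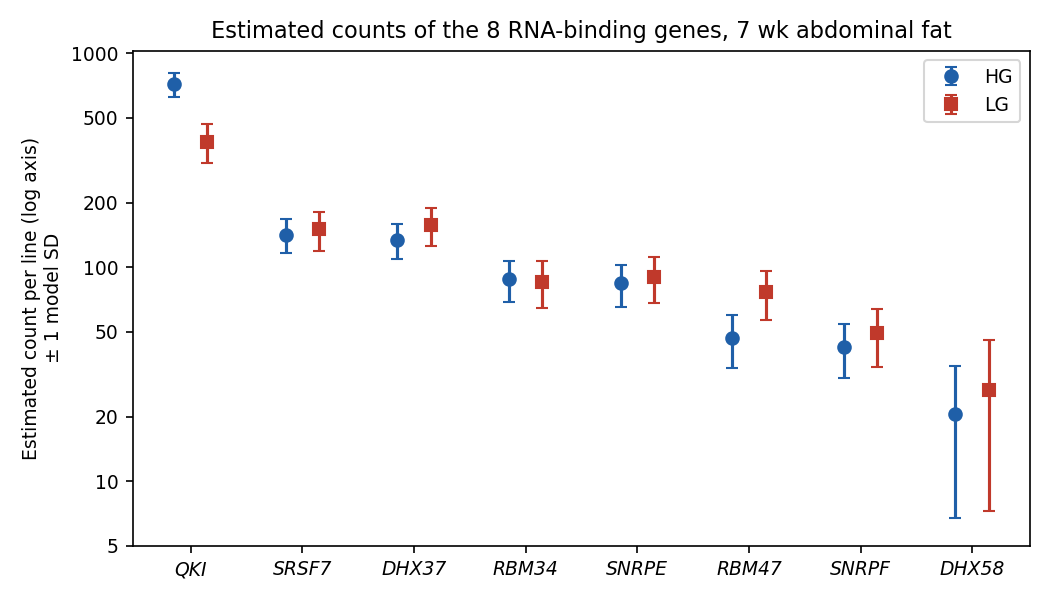
Estimated counts of the 8 genes in HG (circles, left) and LG (squares, right) abdominal fat, on a log axis, with bars of 1 model standard deviation from the deposited variance. The bars of the lines are clear of each other for QKI (717.5 in HG, 386 in LG), overlap for the other 7, and are longest for DHX58.

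QKI encodes quaking, an RNA-binding protein of the STAR family that in mammals controls splicing in glia, muscle and vessel walls. Its gene (ENSGALG00000011555) had a count of 717.5 in HG against 386 in LG. The square root of the deposited variance was 90.8 in HG against 80.5 in LG. QKI thus had 1.86 times as many counts in HG. The study had called this gap in the same birds, so its size beside the model error is a description. The log2 ratio was 0.89 (95% interval 0.21 to 1.58), the only one of the 8 with an interval that left out 0. The interval left out 0 for 11.4% of all genes tested. Relative to the median gene the ratio was 0.63 (95% interval -0.06 to 1.32), which includes 0. With counts scaled to equal column totals it was 0.50. The ratio lay at percentile 92.3 of the genes tested.

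Skeletal muscle is one of several tissues in which QKI acts in mammals. Markers of glia and vessel walls were not examined here. The skeletal muscle markers tested had higher counts in HG, as did 75.3% of all genes tested. Of 14 such markers 6 had a row and 4 were tested, with a median log2 ratio of 3.97, and all 4 lay above the median gene. Their summed count with the other 2 was 1428 in HG against 534 in LG, most of it from ACTA1, skeletal actin, with 1144 in HG against 526 in LG. MYOM2, a protein of the M band, had 109 in HG against 7.24 in LG and passed as higher in HG on both scales. ACTN2 had 67.6 in HG against 1.13 in LG, and TNNI2 had 23.7 in HG against 0.332 in LG. MYBPC1 had 83.8 in HG and was listed at 0 in LG, and TNNC2 was listed at 0 in both lines. The paper places TNNC2 among the genes most raised in HG, so a listed 0 is not read as an absent transcript. These markers were named only through the study's list of called genes, so their ratios are a description. The part of muscle in the QKI counts was not tested.

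Because the scaling between the lines is not known, QKI was also set against the other 7 genes within each line, a quantity that no scaling can move. QKI had 1.29 times the summed count of the other 7 in HG and 0.61 times that sum in LG. The log2 difference between these quotients was 1.08. QKI has the highest ratio of the 8, so this difference restates its place among them and is no further evidence. QKI made up 56.3% of the counts of the 8 genes in HG and 37.8% in LG. The summed count of all 8 was 1275 in HG against 1021 in LG, which gave a log2 HG/LG ratio of 0.32 (95% interval -0.04 to 0.68). Without QKI the sums were 557 in HG against 635 in LG, which gave a log2 HG/LG ratio of -0.19 (95% interval -0.56 to 0.19). Relative to the median gene the ratio of the sums was 0.06 with QKI and -0.45 without it. With equal column totals it was -0.07 with QKI and -0.58 without it, so the sum of all 8 had no direction that held under every scaling.

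RBM47 had the lowest ratio of the 8. It encodes a protein with RNA recognition motifs that in mammals regulates splicing and RNA editing, mostly in epithelial tissues. The count of RBM47 (ENSGALG00000014267) was 46.6 in HG against 76.5 in LG. The model standard deviation was 12.9 in HG against 19.6 in LG. Its HG count was 0.609 of the LG count, a gap that the intervals do not separate from equality. The log2 ratio was -0.70 (95% interval -1.75 to 0.35), and -0.96 relative to the median gene (95% interval -2.01 to 0.09). The ratio lay at percentile 5.62 of the genes tested. QKI had 15.4 times the count of RBM47 in HG and 5.04 times its count in LG. These quotients alone do not show which line had the higher count of either gene. The log2 difference of those quotients was 1.61. It was taken between the highest and the lowest ratio of the 8 and is the widest by choice.

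RBM47 is read beside the markers of the epithelial cells and the serous lining that fat samples can carry. Of 18 such markers 1 could be matched to a row. This was WT1, a transcription factor of mesothelium, with counts of 49.9 in HG against 96.1 in LG, which is -0.93 as a log2 ratio (95% interval -2.37 to 0.51), or -1.19 relative to the median gene. EPCAM, CDH1, KRT18, KRT19, ESRP1, MSLN and UPK3B were not matched to a row. WT1 was also named through the study's list. The part of such cells in the RBM47 counts was not tested.

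**Figure D2:**
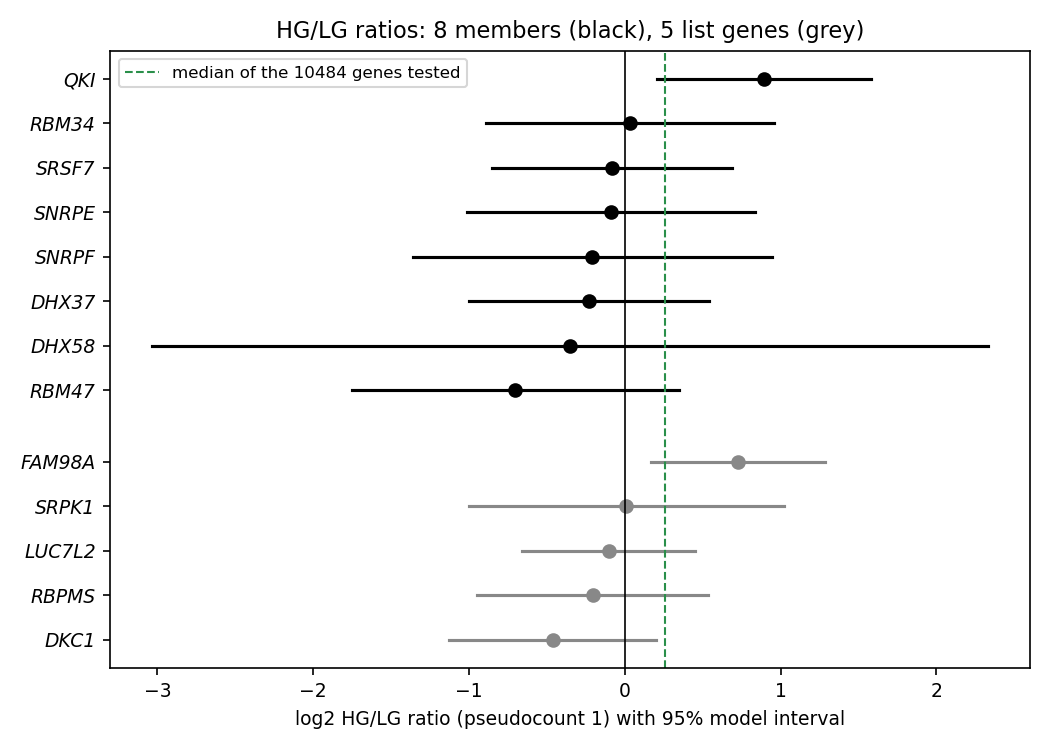
Log2 HG/LG ratios (points) with 95% model intervals (lines) of the 8 genes in black and of 5 other genes of the RNA-processing lists in grey, with the median of all genes tested as a dashed line at 0.26. QKI at 0.89 and FAM98A at 0.73 lie to the right of both lines, and the other 11 genes lie to the left of the dashed line.

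As deposited, the general splicing proteins had counts close to each other in the lines, within wide intervals. The HG/LG ratio lay at percentile 19.7 of the genes tested for SRSF7, 19.4 for SNRPE and 14.2 for SNRPF. SRSF7, an SR protein that binds exonic enhancers and also takes part in mRNA export, had a count of 142 in HG against 150 in LG (ENSGALG00000013819). Its log2 ratio was -0.08 (95% interval -0.85 to 0.68), or -0.34 relative to the median gene. The interval spans from 0.554 to 1.61 times the LG level, so a difference of moderate size in either direction was not detectable at this precision.

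SNRPE and SNRPF encode neighbouring subunits of the Sm ring, which are needed in equal numbers in each ring. SNRPE (ENSGALG00000000137) had a count of 84.2 in HG against 89.6 in LG. Its log2 ratio was -0.09 (95% interval -1.01 to 0.83), or -0.35 relative to the median gene. SNRPF (ENSGALG00000011409) had 42.4 in HG against 49.2 in LG, with a log2 ratio of -0.21 (95% interval -1.36 to 0.95), or -0.47 relative to the median gene. Both Sm genes thus had slightly fewer counts in HG, well within the model error. SNRPE had 1.98 times the count of SNRPF in HG and 1.82 times in LG. The log2 difference of these quotients was 0.12, with a 95% interval of -1.38 to 1.63, which is too wide to show that the balance of the subunits was the same. The quotients are not divided by transcript length and do not give the molar balance. SRSF7 had 1.69 times the count of SNRPE in HG and 1.68 times in LG.

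The genes of ribosome assembly and the less studied RBM34 were close to the splicing proteins. DHX37 encodes a DEAH box helicase whose yeast counterpart releases a small nucleolar RNA from the precursor of the small ribosomal subunit. Its gene (ENSGALG00000002964) had a count of 134 in HG against 157 in LG, which gave a log2 HG/LG ratio of -0.23 (95% interval -1.00 to 0.54), or -0.49 relative to the median gene. RBM34 (ENSGALG00000014328) had 87.6 in HG against 85.6 in LG, which gave a log2 HG/LG ratio of 0.03 (95% interval -0.89 to 0.96). The sign of the RBM34 ratio turned with the scaling, to -0.23 relative to the median gene and -0.36 with equal column totals. None of the other 7 changed sign under either scaling.

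DHX58 encodes LGP2, a helicase related to RIG-I. Chickens have no RIG-I gene and detect viral RNA in the cytosol through MDA5 and LGP2. The count of DHX58 (ENSGALG00000023821) was 20.6 in HG against 26.6 in LG, the lowest of the 8 in both lines. The model standard deviation was 13.9 in HG against 19.3 in LG. Its log2 ratio of -0.35 had a 95% interval of -3.04 to 2.33, the widest of the 8. Relative to the median gene it was -0.61 (95% interval -3.30 to 2.07), so neither a higher nor a lower level in HG can be read from it.

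Other genes of cytosolic RNA sensing and the interferon response were examined beside DHX58. Of the 35 symbols in that list, 9 led to a row, and the 8 besides DHX58 were tested. All 8 had the lower count in HG and lay below the median gene, with a median log2 ratio of -0.55. Each of them came from the study's own list of called genes, while the shares below are over all genes tested. Neither their direction nor the number that passed is therefore independent evidence. Among the 1364 genes tested that have a symbol, 62.4% lay above the median gene. Passing genes numbered 0 of 8 with the deposited counts, where 0.858% of all genes tested passed as lower in HG. After centring 1 of 8 passed as lower in HG, where 1.19% did. With the variance divided by the 4 birds of a line 5 of 8 passed as lower in HG (IRF8, MX, RSAD2, ZNFX1 and PARP12), where 4.87% did. With centring as well, DTX3L joined them and 6 of 8 passed, where 7.90% did.

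The gene that passed after centring was MX, an interferon-induced antiviral GTPase, with a count of 246 in HG against 467 in LG. Its log2 ratio was -0.92 (95% interval -1.55 to -0.30), and -1.18 relative to the median gene. ZNFX1, a helicase that binds viral RNA in mammals and the list gene with the highest counts, had 605 in HG against 912 in LG, which is -0.59 as a log2 ratio (95% interval -1.15 to -0.03), or -0.85 relative to the median gene. The ratio of DHX58 was less negative than the list median and far less precise.

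**Figure D3:**
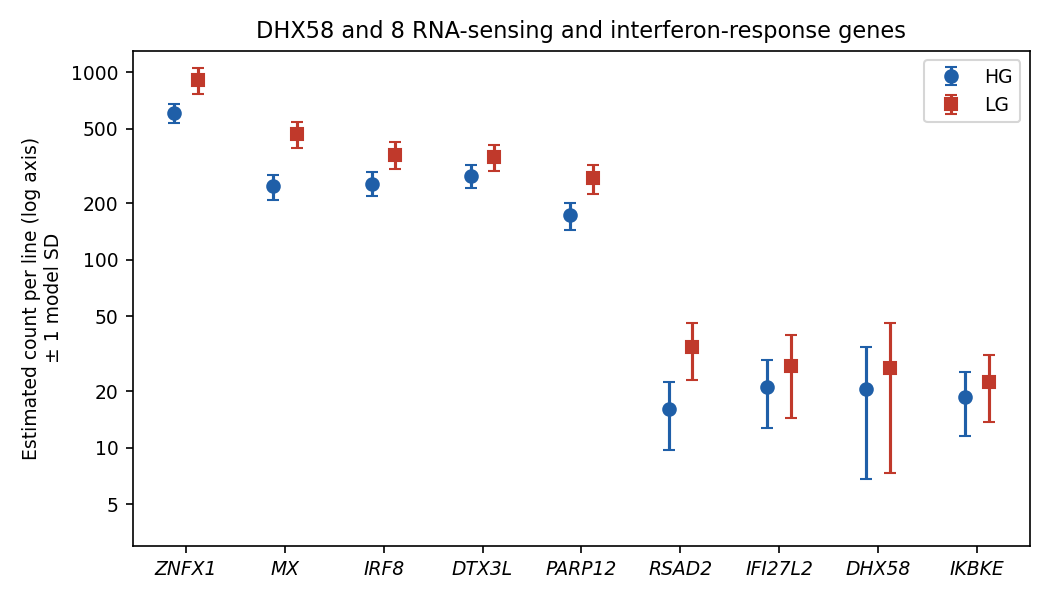
Estimated counts of DHX58 and 8 other RNA-sensing and interferon-response genes in HG (circles, left) and LG (squares, right), on a log axis, with bars of 1 model standard deviation. Every gene shown has the lower point in HG, among them 605 in HG against 912 in LG for ZNFX1 and 246 in HG against 467 in LG for MX.

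Leukocytes are one carrier of interferon-response transcripts in fat. Of 16 macrophage and leukocyte markers, 6 were tested. With the deposited counts 0 passed, where 2.93% of all genes tested did, and after centring 0 passed, where 2.18% did. The summed count of these markers was 4945 in HG against 4913 in LG, a level balance that rested on CSF1R, the receptor of macrophage growth factor, with 2318 in HG against 1401 in LG. The other 5 (CTSS, ITGB2, CD3E, LCP1 and SPI1) had lower counts in HG and ratios from -0.57 to -0.20. With the variance divided by the 4 birds of a line, LCP1 and SPI1 passed as lower in HG, where 4.87% of all genes tested did. With centring as well, CTSS and ITGB2 joined them, where 7.90% did. CSF1R passed as higher in HG under both of these readings, where 27.1% and 16.1% passed in either direction. Of 14 red cell markers, which matter because chicken red cells are nucleated, CA2 and SPTB were tested. Their summed count was 273 in HG against 535 in LG. CA2 passed as lower in HG after centring, where 1.19% of all genes tested did. Both sets of markers were named through the study's list, so nothing is read from how many passed. The part of these cells in the counts of DHX58 and the other members was not tested.

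The genes named around these members were searched through 13 lists of splicing, 3′ end formation, ribosome assembly and tRNA ligation, with 395 symbols in all. Symbols were at hand only for a part of the study's list of called genes, and 18 of the 395 were in that part. Of these 18, 14 had a row, which were the 8 members, RBM14 and 5 others. The lists of hnRNP proteins, tri-snRNP proteins, Prp19-complex factors and polyadenylation factors held no gene of the part used here. Whether the rest of the study's list holds any was not examined. Most of the spliceosome was therefore measured among loci that have no name here, and nothing is said of it.

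None of the 5 others passed with the deposited counts or after centring. At an unadjusted p under 0.05 there was FAM98A with the deposited counts, where 11.1% of the genes tested were, and DKC1 after centring, where 7.51% were. FAM98A, the gene of the tRNA ligase list that had a row, had counts of 661 in HG against 399 in LG. Its log2 ratio was 0.73 (95% interval 0.17 to 1.29), or 0.47 relative to the median gene (95% interval -0.09 to 1.02). FAM98A was the only one of the 5 above the median gene. DKC1, the pseudouridine synthase of small nucleolar RNPs, had 192 in HG against 265 in LG, and its log2 ratio was -0.46 (95% interval -1.13 to 0.20), or -0.72 relative to the median gene (95% interval -1.39 to -0.06).

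SRPK1, a kinase that phosphorylates SR proteins such as SRSF7, had 339 in HG against 337 in LG, and its log2 ratio was 0.01 (95% interval -1.00 to 1.02). LUC7L2, a protein of the small nuclear RNP that recognises 5′ splice sites, had 495 in HG against 532 in LG, and its log2 ratio was -0.10 (95% interval -0.66 to 0.45). RBPMS, a splicing regulator of smooth muscle in mammals, had 149 in HG against 172 in LG, and its log2 ratio was -0.21 (95% interval -0.95 to 0.54). The median ratio of the 5 was -0.10, close to the -0.15 of the members.

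The ribosomal protein genes, a neighbouring group of RNA biology, gave a comparison of position without a test. They were those in the part of the study's list used here. There were 22 of them with counts, and all 22 lay below the median gene, with ratios from -0.43 to 0.23 and a median of -0.22. The 8 members ranged more widely, from -0.70 to 0.89, and 7 of them lay below the median gene. The lowest counts of the 22 were those of RPL26, with 137 in HG against 143 in LG. RBM34, RBM47, SNRPE, SNRPF and DHX58 had lower counts than RPL26 in both lines. Whether the lower counts widened the range of the members was not tested. The HG count was the higher one in 3 of the 22 and in 2 of the 8. Whether the groups differ was not tested, since both were chosen from the contrast shown.

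**Figure D4:**
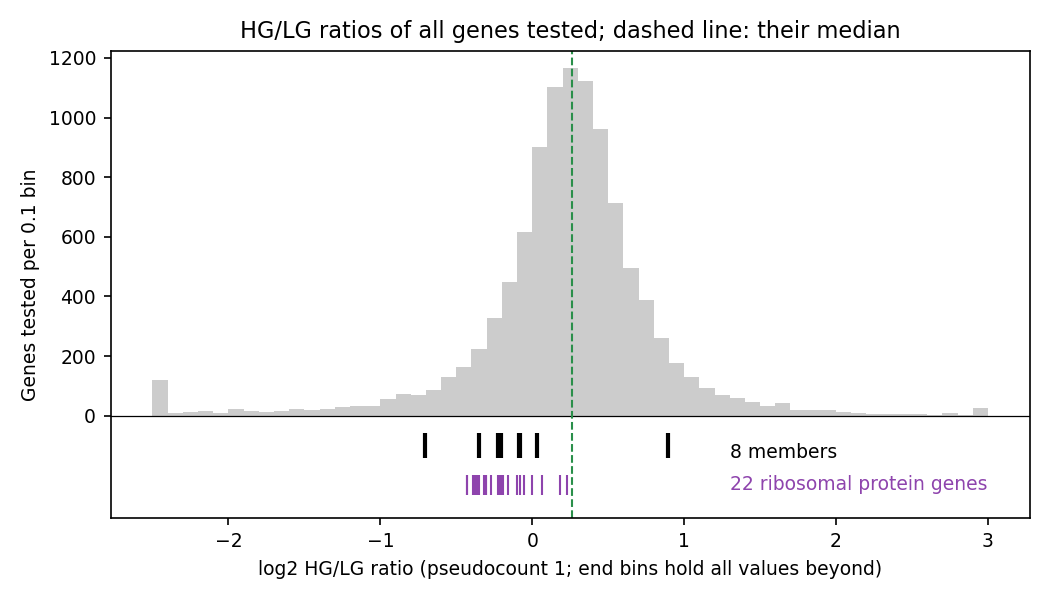
Histogram of the log2 HG/LG ratios of the 10484 genes tested, with ticks below it for the 8 members (black) and 22 ribosomal protein genes (purple) and a dashed line at the median of 0.26. The members form a group between -0.70 and 0.03 with QKI alone at 0.89, and every purple tick is left of the dashed line.

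The precision of the members followed their counts, with 2 exceptions. The relative model standard deviation of QKI was 12.7% in HG against 20.8% in LG. Genes with a count within 1.2-fold of it had a median of 11.7% in HG against 16.3% in LG. QKI was thus less precise than most genes of its count, at percentile 80.7 in HG against 93.7 in LG. Its deposited variance exceeded the part that the model assigned to dispersion by a factor of 1.19 in HG against 1.70 in LG. The deposited part from read assignment was nil for QKI within rounding, at -1.1e-13 in HG and 1.1e-13 in LG. The source of the excess was not tested. QKI is known to be spliced into isoforms that differ at the end of the protein. The table used here gives 1 count per locus for all of them. For 6 of the 8 members the variance equalled the dispersion part (within 0.1%) in both lines, as it did for 66.9% of the genes tested. The dispersion part comes from the model and is not a spread measured between birds.

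DHX58 was the other exception. Its relative standard deviation was 67.2% in HG and 72.6% in LG. Genes of like count had medians of 36.9% in HG and 37.2% in LG. SNRPF, with the next lowest LG count of the members, had 28.6% in HG against 30.4% in LG. The remaining 6 members lay between percentile 36.6 and 51.1 of genes of like count in both lines. For 7 of the 8 the relative error was larger in LG, and RBM47 was the exception. Half-widths of the 95% interval ran from 0.69 for QKI to 2.68 for DHX58 on the log2 scale.

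**Figure D5:**
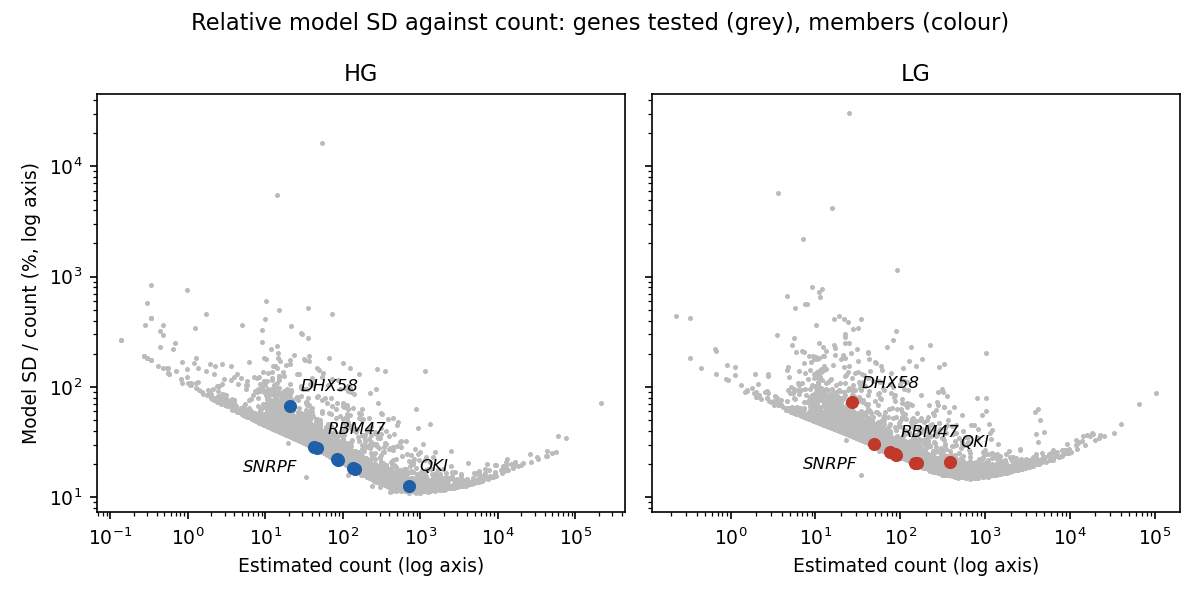
Relative model standard deviation (percent, log axis) against estimated count (log axis) for the genes tested (grey) and the 8 members (colour), HG on the left and LG on the right. Most members lie in the lower band of the cloud, and DHX58 lies above that band at 67.2% in HG against 72.6% in LG.

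The places of the members are given by neighbouring genes, since the count table holds no coordinates and the RefSeq annotation at hand (GRCg7b) is of another build than the Galgal4 assembly of the counts. All 8 symbols were found in it once. SRSF7 lies between HNRNPLL, an hnRNP protein, and GEMIN6, a subunit of the complex that loads the Sm ring, and overlaps GALM, an enzyme of galactose metabolism. None of these neighbours was matched to a row among the counts. DHX37 and RBM47 each overlap loci without a gene name. The other 5 members overlap no annotated gene. The libraries kept strand, but whether the counting used it is not given in the sources used here, so reads of overlapping genes could be shared in SRSF7, DHX37 and RBM47.

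Whether QKI and RBM47 passed depended on how the deposited variance is read. If it is that of 1 bird and is divided by the 4 birds of a line, 2 of the 8 passed with the deposited counts, QKI as higher and RBM47 as lower in HG, where 27.1% of all genes tested passed. The same 2 passed after centring with that variance, where 16.1% did. Nothing is read from these counts, for the reason given above. DKC1 and FAM98A passed on both scales under it. SRSF7, SNRPE, SNRPF, DHX37, RBM34 and DHX58 did not pass under any reading tried. With the deposited counts, the HG/LG fold was 1.02 for RBM34, 0.943 for SRSF7, 0.940 for SNRPE, 0.863 for SNRPF and 0.853 for DHX37. Each fell short of the 1.2-fold minimum, so no reading of the variance could make them pass on that scale.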

How the data were processed

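Abdominal fat RNA of 4 HG and 4 LG cockerels was sequenced in 2 lanes per bird. The authors deposited 1 table of estimated counts per locus and line, with model variances in squared counts. Per the submitters' processing notes, TopHat 1.3.3, Bowtie 0.12.7 and Cuffdiff 2.0.2 were used. The methods add trimming, Galgal4 and assembly with a Cufflinks release earlier than this Cuffdiff. The study called every member, and none passed here with the deposited variances. With the deposited counts RBM34, SRSF7, SNRPE, SNRPF and DHX37 also fell short of the 1.2-fold minimum. The reason why the calls differ from the study's was not tested. The scaling of the counts between lines is not given in the sources used here. Counts per bird were not analysed here, so p values rest on the model variance, not on a spread between birds.

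The test took genes with 10 or more counts in the higher line, none at 0 and status OK in both. The natural log of the HG/LG count ratio was divided by its delta-method standard error and compared with the normal distribution (two-sided), with Benjamini-Hochberg adjustment over all 10484 genes. Calls needed an adjusted p at or under 0.05 and a 1.2-fold difference or more. Printed ratios and intervals have a pseudocount of 1, and intervals do not cover the scaling. The intervals of quotients between genes treat genes as independent.

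Symbols came from 1993 identifiers in the part of the study's list used here, of which 1511 had a row; its values were not used. RefSeq GRCg7b gave gene neighbours only, and sequences were not used here. All members were named, with the list genes of highest count and those that passed; the choice of other list genes and markers followed a look at their values. The members and lists were chosen with earlier results of these data known. The test was tried on simulated data. Calculations used Python 3.11.15, pandas 2.3.3, numpy 2.4.6, scipy 1.17.1 and matplotlib 3.10.9.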

Additional observations from a re-analysis of the deposited data

How the results depend on the processing

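The number of genes that passed was 307 as deposited. It was 229 after centring on the median gene (104 higher and 125 lower in HG, against 217 and 90 as deposited), 236 with equal column totals (73 higher and 163 lower), and between 226 and 344 with other count minimums, fold minimums or the Poisson variance added. With the variance divided by the birds of a line it was 2841, and 1692 with centring as well, a combination chosen after seeing the data. Under both of these readings 2 members (QKI and RBM47) and 2 other RNA-processing list genes (DKC1 and FAM98A) passed; under the other 7 alternatives 0 members and 0 list genes did. A smaller variance by construction narrows every standard error. Of the 5 other list genes 1 lay above the median gene under every alternative run. Pseudocounts of 0 and 10 moved no member's ratio by more than its standard error. Centring and equal totals turned the sign of RBM34, and equal totals moved 3 of the 8 by more than their standard error. A count minimum of 50 left 6 members tested, without SNRPF and DHX58. No paired analysis was possible because the count columns hold 1 value per line and carry no replicate number, and leaving out a bird was not possible for the same reason. At the members' counts the 95% half-width was at least 0.69 on the log2 scale, which limits what could be detected.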
